A study of Schizosaccharomyces pombe with 37 samples.

Results

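The transcriptomes of 2 fission yeast (Schizosaccharomyces pombe) mutants in subunits of the same RNA 3′ processing machine were set directly against each other, pfs2-F115H over yth1-R59C. Features were taken from the deposited table of total RNA-seq when they averaged at least 1 CPM (read counts of a feature normalised to the size of its library) over the 6 libraries of the 2 mutants. This kept 5941 of the 6996 annotated features. All strains were h- leu1-32 ura4-D18 ade6-704 with a trp1+::ade6+ reporter, the pfs2 strain carrying in addition pfs2-F115H::kanMX and the yth1 strain the unmarked allele yth1-R59C, which came out of a chemical mutagenesis screen. Wild-type cells with the reporter alone are given for context. No hairpin against ade6 was expressed in any of them, and ade6 reads come from ade6-704 and the reporter together. Each genotype was 1 strain, grown exponentially in rich medium at 30°C, with 3 replicate libraries. Nothing in the labels or methods says that the replicates were separate cultures, so the p-values measure the spread between these libraries, which may be technical.

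The cleavage and polyadenylation factor (CPF) cuts nascent RNA behind a polyadenylation signal, adds the poly(A) tail and helps to release RNA polymerase II from the template. Yth1 is the homologue of human CPSF30 and Pfs2 that of human WDR33, and in the human complex these neighbouring subunits together read the AAUAAA hexamer. A direct comparison of the mutants asks where cells with a change in one of these subunits differ from cells with a change in the other.

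The mutated codons are shown within the reference sequence, since each allele changes 1 residue of a subunit that is otherwise whole. They were read from RefSeq (ASM294v3), 5′ to 3′ on the coding strand, with the codon in capitals. The pfs2 window lies at chrI:320304-320330 (plus strand), in the single coding exon of a protein of 509 residues. The yth1 window lies at chrI:511052-511070 (minus strand) and begins where its coding exon begins, in a protein of 170 residues with 3 coding exons.
pfs2, wild-type codon of F115H: ctcacatttaatTTTgagttaattaat
yth1, wild-type codon of R59C: gcttCGTggactttgtaaa

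Depth was uneven. The pfs2-F115H libraries 1 to 3 held 1305730, 1858422 and 3776513 reads, the yth1-R59C libraries 1943817, 1893003 and 5652147 reads, so that 3 reads, the smallest level taken as detectable, corresponded to between 0.531 and 2.30 CPM. This floor covers counting error only. Correlations of log2(CPM + 1) between libraries were 0.983 to 0.989 within pfs2-F115H, 0.988 to 0.990 within yth1-R59C and 0.977 to 0.990 between the mutants. Mitochondrial transcripts took 12.4 to 15% of the reads in pfs2-F115H and 11.9 to 12.6% in yth1-R59C.

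The mutants were close to each other. Of the tested features, 98.7% differed by less than 2-fold and the median log2 fold change was 0.03. With limma on log2(CPM + 1), 39 features were called (adjusted p under 0.05 and at least 2-fold), which is 0.656% of those tested. Of these, 27 (0.454%) were higher in pfs2-F115H, by 1.02 to 2.74 on the log2 scale, and 12 (0.202%) were lower, with log2 fold changes of -1.83 to -1.05. The libraries of the mutants did not overlap for any of the 39, against 19.6% of all tested features without overlap. Without a minimum size of change, 153 features passed the adjusted p (2.58%), 91 higher (1.53%) and 62 lower (1.04%). In the same fit, 195 features (3.28%) were called for pfs2-F115H over wild type, 168 of them higher (2.83%), and 50 (0.842%) for yth1-R59C over wild type, 42 of them higher (0.707%). These comparisons share the wild-type libraries. 14 features kept their call under all 22 alternatives with the same thresholds: SPCC737.04, cmt2, sno52, SPBC19C7.04c, abc1-antisense-1, mdl1-antisense-1, ctp1-antisense-1, frp1, nc-pho1, Tf2-11, fio1, SPBC460.05, guf1 and SPBPB10D8.02c. 21 of the 39 lost it in at least 1 of the 6 fits that left out 1 library.

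**Figure D1:**
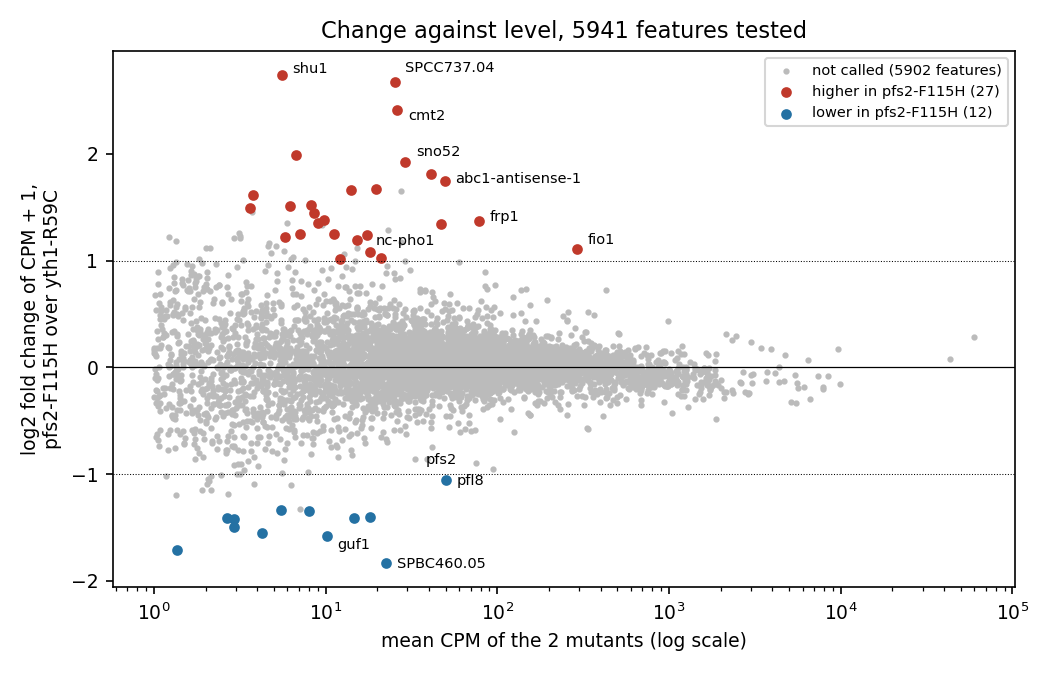
The log2 fold change of CPM + 1, pfs2-F115H over yth1-R59C (vertical axis), is plotted against the mean CPM of the 2 mutants (horizontal axis, log scale) for the 5941 tested features. The 27 features called higher (red) and 12 called lower (blue) lie outside the dotted lines at 2-fold, while 98.7% of the features lie between them.

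Wild type lay on the yth1-R59C side. For 36 of the 39 called features the wild-type mean was nearer to yth1-R59C than to pfs2-F115H, namely for all 27 that were higher and 9 of the 12 that were lower. Over all tested features the share was 65.6%. The exceptions were ftm4, SPBPB2B2.05 and SPNCRNA.209. In ftm4 and SPNCRNA.209 yth1-R59C stood apart from both other strains. For SPBPB2B2.05 the wild-type mean lay between the mutants. There yth1-R59C over wild type did not pass the test (log2 fold change 0.86, limma adjusted p = 0.239). Among the 114 features that passed the adjusted p with less than a 2-fold change, wild type was nearer to yth1-R59C for 50 of the 64 higher and 41 of the 50 lower ones.

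The mutated genes themselves were measured first. pfs2 RNA had 22.2, 26.9 and 20.9 CPM in pfs2-F115H, against 45.3, 43.3 and 40.2 CPM in yth1-R59C, with 44.6, 45.7 and 37.2 CPM in wild type. Thus pfs2 was lower in its own mutant in every library (log2 fold change -0.86, SE 0.13, limma adjusted p = 6.61e-05), at a level of 0.544 of that in yth1-R59C, which does not reach the 2-fold needed for a call. The allele carries a kanMX cassette at the locus, and its part in this difference was not tested. yth1 had 17.6, 15.6 and 16.1 CPM in pfs2-F115H and 14.4, 13.7 and 12.7 CPM in yth1-R59C (log2 fold change 0.26, limma adjusted p = 0.669), a difference that did not pass the test. A point mutation leaves the RNA of its gene in place, so neither level checks the label. The listed features on either side of the 2 genes had log2 fold changes of 0.02 to 0.80, and none passed the test (limma adjusted p 0.262 to 0.97). The largest of these was sif3-antisense-1 beside pfs2, at a mean of 4.62 CPM in pfs2-F115H and 2.22 CPM in yth1-R59C.

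The reporter transcript and a housekeeping gene did not pass the test either. ade6, which encodes an enzyme of adenine biosynthesis, had 396, 379 and 423 CPM in pfs2-F115H and 385, 383 and 371 CPM in yth1-R59C (log2 fold change 0.07, limma adjusted p = 0.719). act1, the actin gene, had 3842, 4082 and 4504 CPM against 3668, 3511 and 3811 CPM in yth1-R59C (log2 fold change 0.18, limma adjusted p = 0.287). Of the 9 genes of the CPF poly(A) polymerase and nuclease modules only pfs2 passed the adjusted p, and the 4 genes of the phosphatase module had no member past it. No member of the lists for other termination factors (13 tested), the RNAi machinery (13), heterochromatin and its antagonists (19) or Mmi1, MTREC and the exosome (23) passed it.

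Iron acquisition genes were among the features called higher. Fission yeast takes up iron by reducing it at the cell surface and passing it through an oxidase and permease pair, by importing siderophores, and by taking up heme; the GATA-type factor Fep1 represses these genes when iron is plentiful. Of 12 genes in the iron list, 3 were called higher and 0 lower, beside 0.454% and 0.202% of all tested features, and 4 passed the adjusted p, all higher, beside 1.53%. The median log2 fold change was 0.12, beside 0.03 over all tested features. The list's median over wild type was 0.31 in pfs2-F115H and -0.00 in yth1-R59C.

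shu1 encodes a cell-surface protein of heme uptake and had the largest fitted rise at the pseudocount of 1 used here. It stood at 13.0, 8.61 and 9.53 CPM in pfs2-F115H, against 0.514, 0.528 and 1.06 CPM in yth1-R59C. These are 69 reads in all in pfs2-F115H and 8 in yth1-R59C, and each yth1-R59C library lies near the value of a single or a few reads. The log2 fold change was 2.74 (SE 0.39, limma adjusted p = 1.9e-05), and over the alternatives it ran from 1.60 with a pseudocount of 4 to 3.75. shu1 is 1 of 3 called features, with ftm4 and SPNCRNA.209, that averaged less than 1 CPM in one mutant and thus reached the level for testing through the other. Wild type was as low as yth1-R59C, with 0.502, 1.73 and 0.269 CPM.

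frp1, the ferric-chelate reductase that frees iron for uptake, had 116, 116 and 108 CPM in pfs2-F115H and 41.7, 39.6 and 48.5 CPM in yth1-R59C (log2 fold change 1.38, SE 0.26, limma adjusted p = 0.00113). fio1, the multicopper oxidase of the uptake pair, had 409, 396 and 389 CPM against 187, 166 and 202 CPM in yth1-R59C (log2 fold change 1.11, SE 0.20, limma adjusted p = 0.000814). In both genes the pfs2-F115H libraries lay close together and far above yth1-R59C. The wild-type libraries were more spread, with 21.3, 48.2 and 33.1 CPM for frp1 and 153, 261 and 214 CPM for fio1, all below pfs2-F115H. fip1, the permease that works with Fio1 and is transcribed away from it out of the same upstream region, had 82.7, 113 and 138 CPM in pfs2-F115H and 57.6, 44.4 and 76.2 CPM in yth1-R59C. It passed the adjusted p but not the 2-fold limit (log2 fold change 0.90, SE 0.22, limma adjusted p = 0.0141). The calls of shu1, frp1 and fio1 were kept in every fit that left out 1 library.

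The other list members did not pass. str3, a siderophore transporter, had 218, 169 and 166 CPM in pfs2-F115H against 119, 104 and 105 CPM in yth1-R59C, without overlap between the mutants (log2 fold change 0.74, SE 0.32, limma adjusted p = 0.267). Its wild-type libraries were spread, at 58.2, 147 and 84.0 CPM. In frp1, fio1, fip1 and str3 alike, wild-type library 2 was the highest and library 1 the lowest. The differences of these genes may therefore not be independent of each other. The siderophore transporters str1 and str2, the siderophore synthesis genes sib1, sib2 and sib3, and the regulators php4 and fep1 had log2 fold changes between -0.23 for fep1 and 0.19 for str1. frp2, a further ferric reductase gene that was not on the list and was chosen after its values were seen, had 19.9, 18.8 and 18.3 CPM in pfs2-F115H and 9.77, 8.98 and 9.91 CPM in yth1-R59C (log2 fold change 0.92, limma adjusted p = 0.0137).

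**Figure D2:**
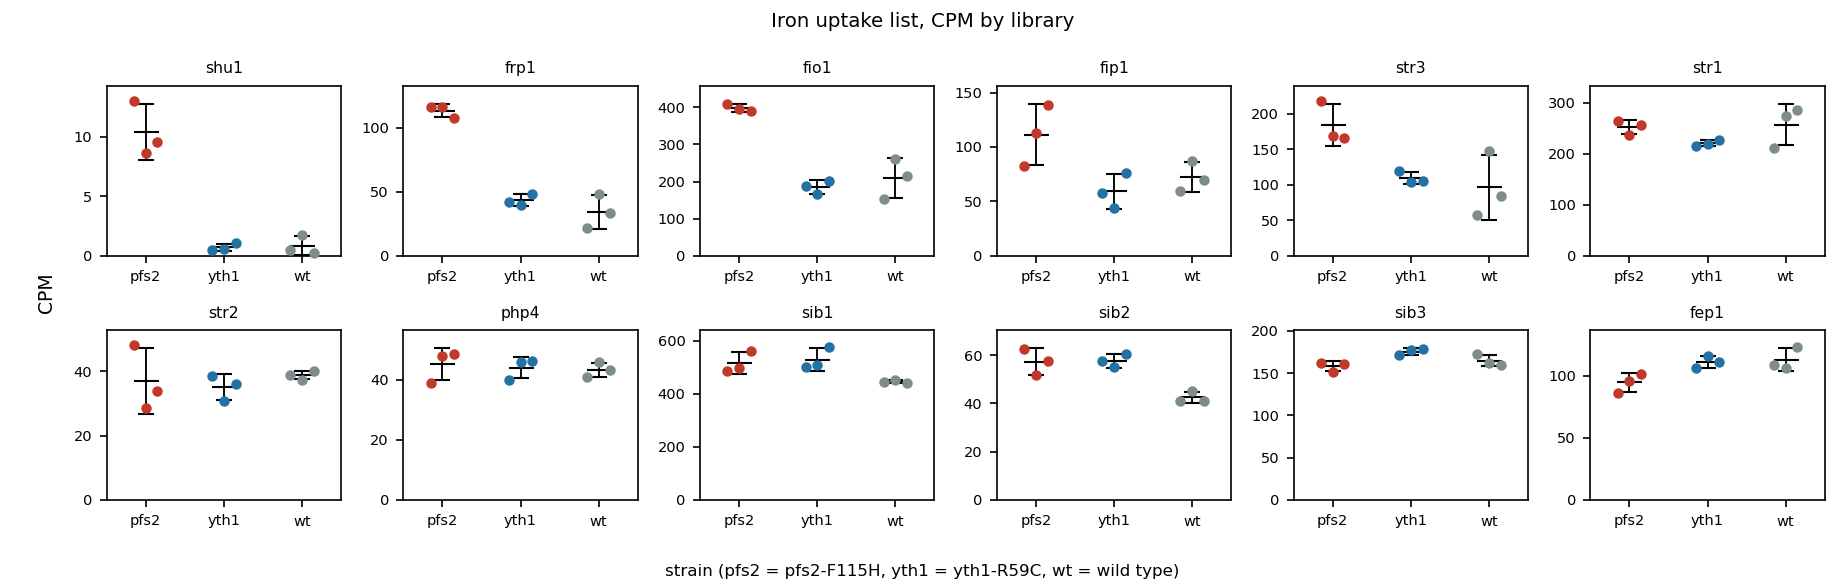
CPM (vertical axis, from 0) of the 12 iron uptake genes in each library of pfs2-F115H (red), yth1-R59C (blue) and wild type (grey), with the mean and SD of 3 libraries as bars. In shu1, frp1 and fio1 all pfs2-F115H libraries lie above all yth1-R59C and wild-type libraries, whereas sib1 and sib2 overlap between the mutants.

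The Fep1 element was searched for because iron genes were called higher, and the motif was therefore chosen after the values were seen. Either ATCTGATAA or ATCAGATAA on either strand was counted in the 1000 bases before the annotated start in RefSeq (ASM294v3). It was found for 195 of 4887 tested coding genes (3.99%), 10 of the 12 iron genes (83.3%) and all 3 of those called. Genes with the element that did not pass the test, such as str1, sib1 and sib2, were thus more numerous on the list than those that were called, and sib3 and fep1 had none. The list was drawn up from genes of iron uptake and its control, so a high share with the element was not independent of that choice. The sites of the called genes are shown with 10 bases on either side and the element in capitals, written on the strand of the gene. They lie at chrI:86390-86418 and chrI:86895-86923 (both minus, shu1), chrII:162470-162498 and chrII:162762-162790 (both minus, frp1) and chrI:4234826-4234854 (plus, fio1). The fio1 site is also the site found for fip1. A match is a description of the letters and no evidence that the site is bound.
shu1, 130 bases upstream: tatcaagataATCAGATAAtttagcttaa
shu1, 635 bases upstream: cacaatatccATCTGATAAgtaaaatcgt
frp1, 96 bases upstream: aatttggttgATCTGATAAcgcatcaaga
frp1, 388 bases upstream: actttagctcATCAGATAAaaaatagact
fio1, 236 bases upstream: tctggattacATCTGATAActtttgtcca

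2 further coding genes with large rises have no place on any list. SPCC737.04, an uncharacterized protein, had 55.1, 45.2 and 33.1 CPM in pfs2-F115H, against 7.72, 4.75 and 5.84 CPM in yth1-R59C and 3.76, 4.41 and 3.50 CPM in wild type (log2 fold change 2.67, SE 0.31, limma adjusted p = 9.78e-07). cmt2, annotated as a catechol O-methyltransferase, had 62.0, 44.6 and 28.6 CPM against 7.72, 6.34 and 7.78 CPM in yth1-R59C and 3.51, 4.89 and 4.04 CPM in wild type (log2 fold change 2.41, SE 0.28, limma adjusted p = 9.78e-07). In both genes the pfs2-F115H libraries fell in the same order, highest in library 1 and lowest in library 3, and the yth1-R59C and wild-type libraries stayed below 8 CPM.

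Noncoding RNAs made up 14 of the 27 higher calls. Most S. pombe noncoding RNAs of this annotation are transcripts of RNA polymerase II of unknown function, and many are named for the gene they run against. Of 489 annotated antisense RNAs, 10 were called higher (2.04%) and 1 lower, and of 458 other noncoding RNAs 4 were called higher (0.873%) and 1 lower. Of 4887 coding genes 12 were called higher (0.246%) and 7 lower (0.143%). The median log2 fold change was 0.12 for antisense RNAs and 0.07 for other noncoding RNAs, beside 0.03 for coding genes. Over wild type the antisense median was 0.45 in pfs2-F115H and 0.33 in yth1-R59C. The count of 14 noncoding RNAs called higher was 6 without pfs2-F115H library 1, 8 without its library 2, 8 without yth1-R59C library 1, 9 without its library 2, 11 without its library 3 and 14 without pfs2-F115H library 3. It was 6 after all libraries were thinned to 1 depth.

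The largest noncoding rise at this pseudocount was that of SPNCRNA.808, with 10.7, 11.3 and 11.9 CPM in pfs2-F115H, 2.06, 2.11 and 2.12 CPM in yth1-R59C and 2.51, 2.68 and 2.69 CPM in wild type (log2 fold change 1.99, SE 0.39, limma adjusted p = 0.00222). It runs on the same strand as rpc2, which encodes a subunit of RNA polymerase III, and starts 148 bases behind its annotated end. The call was lost with a pseudocount of 0.1 (limma adjusted p = 0.0858) and with libraries thinned to 1 depth (limma adjusted p = 0.125). nc-pho1, the noncoding RNA transcribed through the upstream region of the acid phosphatase gene pho1 and known to repress it, had 68.9, 73.7 and 60.1 CPM in pfs2-F115H against 23.7, 27.5 and 26.5 CPM in yth1-R59C (log2 fold change 1.35, SE 0.18, limma adjusted p = 7.06e-06). It starts 158 bases behind the phosphate transporter gene pho84. Both pho84 and pho1 are listed at 0 in all libraries. Reads over 2 features of the same strand were counted for neither. Whether this accounts for the zeros was not tested, so they are not read as absence of RNA. The analogous RNA nc-tgp1, chosen after its values were seen, also passed the adjusted p below 2-fold, with 173, 140 and 140 CPM against 92.6, 95.1 and 96.8 CPM (log2 fold change 0.66 with a limma adjusted p of 0.000223), while its downstream gene tgp1 had a log2 fold change of -0.15 and did not pass.

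Antisense RNAs rose by 1.02 to 1.75 on the log2 scale where they were called. abc1-antisense-1 had 86.5, 66.7 and 76.8 CPM in pfs2-F115H, against 27.8, 16.9 and 22.5 CPM in yth1-R59C and 7.52, 5.52 and 8.35 CPM in wild type (log2 fold change 1.75, SE 0.24, limma adjusted p = 1.05e-05). This RNA was ordered pfs2-F115H, yth1-R59C, wild type with no overlap between strains. mdl1-antisense-1 had 29.9, 26.9 and 34.2 CPM against 7.72, 6.87 and 12.6 CPM in yth1-R59C (log2 fold change 1.67, SE 0.29, limma adjusted p = 0.000361). ctp1-antisense-1 had 21.4, 21.0 and 23.3 CPM against 4.63, 7.92 and 6.55 CPM in yth1-R59C, which lay below the 9.78, 8.51 and 9.16 CPM of wild type (log2 fold change 1.66, SE 0.28, limma adjusted p = 0.000223). mvd1-antisense-1 was low in all strains, at 6.13, 9.15 and 3.44 CPM against 1.54, 1.58 and 0.708 CPM in yth1-R59C (log2 fold change 1.61, SE 0.41, limma adjusted p = 0.0208). Its call was lost without pfs2-F115H library 1 or 2 or yth1-R59C library 1 or 3 (limma adjusted p up to 0.16).

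The genes on the opposite strand mostly did not pass the test. Of the 10 genes for which the antisense RNAs called higher are named, 2 passed the adjusted p, both lower in pfs2-F115H. guf1, which encodes a GTPase of the mitochondrial translation factor family, had 6.13, 4.84 and 2.91 CPM in pfs2-F115H, against 12.9, 20.1 and 14.0 CPM in yth1-R59C and 27.3, 27.7 and 32.9 CPM in wild type (log2 fold change -1.58, SE 0.20, limma adjusted p = 3.03e-06). Its antisense RNA, SPAC1B3.04c-antisense-2, had 12.3, 15.6 and 10.6 CPM in pfs2-F115H, against 3.09, 7.39 and 2.65 CPM in yth1-R59C and 1.50, 1.73 and 0.808 CPM in wild type (log2 fold change 1.45, SE 0.35, limma adjusted p = 0.0137). The strains thus stood in opposite order for the 2 RNAs of this locus, although the antisense call was lost without pfs2-F115H library 1 or 2 or yth1-R59C library 1 or 3 (limma adjusted p up to 0.104). abc1, the gene of the Coq8 ATPase of ubiquinone synthesis, had 63.6, 47.9 and 66.2 CPM against 86.4, 91.9 and 86.9 CPM in yth1-R59C (log2 fold change -0.58, SE 0.11, limma adjusted p = 0.00201). It passed the adjusted p below 2-fold. The other 8 had log2 fold changes from -0.22 for SPAC13C5.04 to 0.14 for ctp1, with limma adjusted p of 0.677 to 0.974. Of these antisense RNAs 4 also overlap a further gene on the opposite strand (clr1, arp5, abh1 and tht1), and none of those genes passed the test (limma adjusted p from 0.232 for tht1 to 0.831 for abh1). The libraries were stranded and counting used the transcribed strand.

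**Figure D3:**
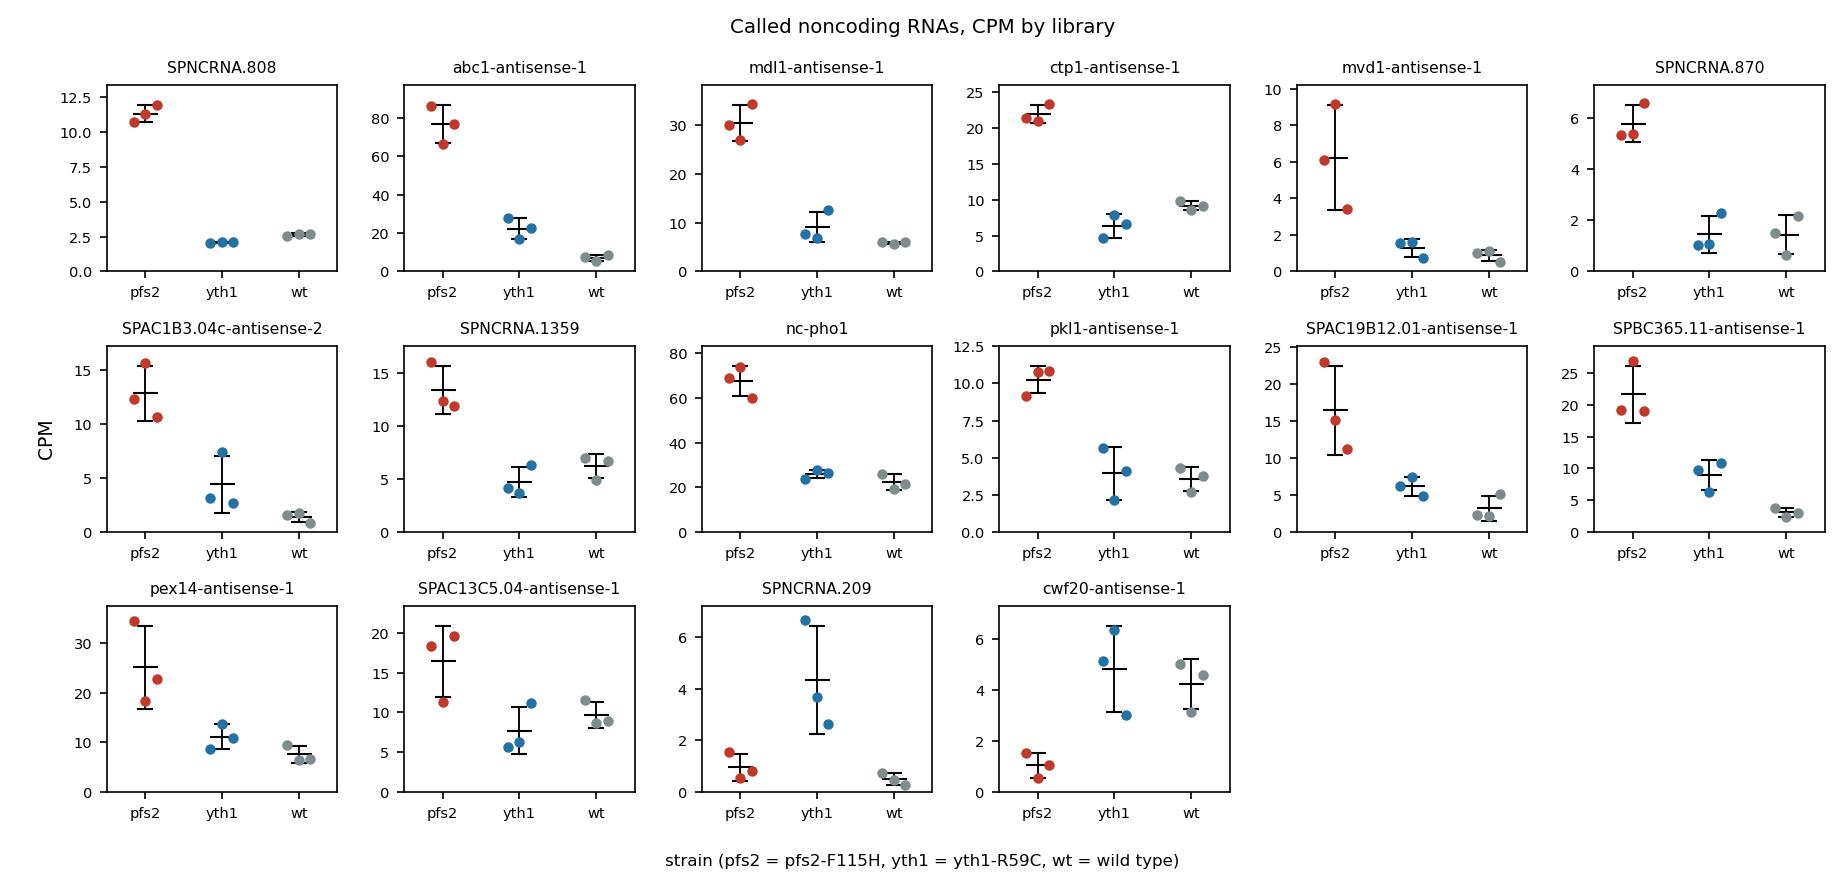
CPM (vertical axis, from 0) of the 16 called noncoding RNAs in each library of pfs2-F115H (red), yth1-R59C (blue) and wild type (grey), with the mean and SD of 3 libraries as bars. The 14 RNAs called higher have all pfs2-F115H libraries above all yth1-R59C libraries, and SPNCRNA.209 and cwf20-antisense-1 have them below.

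The noncoding RNAs called higher lay close behind other transcribed features. All 14 started at most 100 bases before or 500 bases behind the end of the nearest upstream feature on the same strand, from an overlap of 67 bases to a gap of 495 bases, and 3 of them overlapped it. Of the 930 tested noncoding RNAs with a neighbour, 270 lay within these limits (29.0%). By distance, 6 of 137 RNAs starting between 100 bases before and 100 bases behind the upstream end were called higher (4.38%), and 8 of 133 between 101 and 500 bases (6.02%). Of 78 RNAs between 501 and 1000 bases, 445 between 1001 and 5000 bases and 114 farther away, 0 were called higher, and both noncoding RNAs called lower belong to the last set. In the fits without 1 library the number of called RNAs within 500 bases was 6 to 13, in each fit all or all but 1 of the noncoding RNAs called higher.

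The upstream features themselves did not pass the test. Their log2 fold changes were -0.16 to 0.46 in the 13 cases tested (limma adjusted p 0.448 to 1.00). For example, abc1-antisense-1 overlaps the end of alb1 by 67 bases, mdl1-antisense-1 starts 27 bases behind clc1, ctp1-antisense-1 overlaps cox5 by 66 bases, and SPNCRNA.1359 starts 495 bases behind pho4. The annotation describes 6 of the 14 (42.9%) as a possible alternative UTR, against 173 of all 947 tested noncoding RNAs (18.3%) and 87 of the 270 within 500 bases (32.2%). Whether reads on these RNAs belong to longer transcripts of the upstream gene cannot be told apart here from reads on separate RNAs, since counts per feature hold no reads that join the upstream gene and the RNA.

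**Figure D4:**
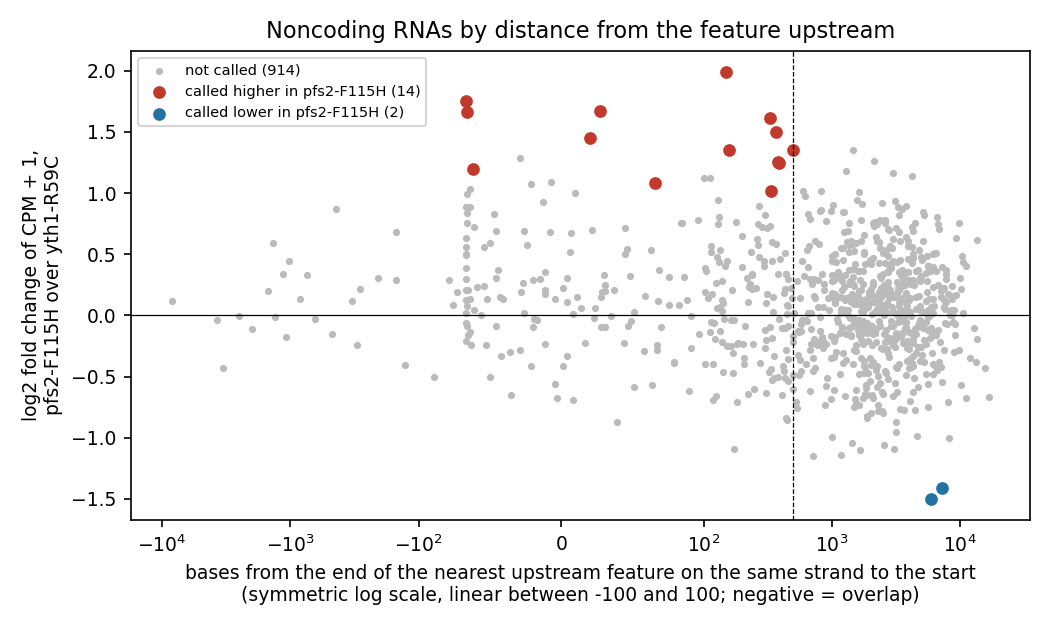
The log2 fold change of CPM + 1, pfs2-F115H over yth1-R59C (vertical axis), of the 930 noncoding RNAs with a neighbour is plotted against the bases from the end of the nearest upstream feature on the same strand to the start of the RNA (horizontal axis, symmetric log scale, negative for overlap). The 14 called higher (red) all lie left of the dashed line at 500 bases and overlap by at most 67 bases, and 270 of the 930 lie between an overlap of 100 bases and that line.

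Coding genes called higher did not show this position. Of 12, 4 started within 500 bases behind a neighbour (33.3%), against 2050 of 4887 tested coding genes (42.0%). These 4 include mcp6, 226 bases behind rpn7, crs1, 229 bases behind mug110, and atg43, 129 bases behind smc5. Among all 27 features called higher the count was 19 (70.4%), against 2340 of 5872 tested features (39.9%) and 0 of 10 called lower. The small nucleolar RNA sno52 was one of the 19. It had 53.6, 50.0 and 36.5 CPM in pfs2-F115H against 12.9, 12.7 and 9.02 CPM in yth1-R59C (log2 fold change 1.93, SE 0.26, limma adjusted p = 8.04e-06) and lies 123 bases behind mcp60, which encodes a mitochondrial chaperonin. mcp60 itself was higher below 2-fold, at 2384 ± 92.8 CPM against 1923 ± 32.0 CPM in yth1-R59C (SD, n = 3 each, log2 fold change 0.31, limma adjusted p = 0.00493). SPBC19C7.04c, a coding gene whose start overlaps SPNCRNA.1554, had 67.4, 70.5 and 54.8 CPM against 18.0, 14.8 and 20.0 CPM in yth1-R59C (log2 fold change 1.81, SE 0.23, limma adjusted p = 4.24e-06).

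The AATAAA hexamer was sought on the transcribed strand in the last 60 bases before annotated ends, because the subunits compared read this signal. It was present in 1114 of 5873 tested features (19.0%), in 7 of the 27 called higher (25.9%) and in 4 of 10 called lower (40%). Of the coding genes within 500 bases upstream of a feature called higher, 3 of 17 held it (17.6%), and for noncoding RNAs called higher 2 of 13 (15.4%), beside 41 of 189 for all tested noncoding RNAs with such a neighbour (21.7%). The signals of these 3 upstream genes are shown with the hexamer in capitals, since they are the only ones found in the coding genes within 500 bases upstream of features called higher. They lie at chrI:2265993-2266022 (minus, rpc2), chrII:4446167-4446196 (plus, pho84) and chrI:5226209-5226238 (minus, smc5). The absence of these letters elsewhere says nothing of other signals.
rpc2, 18 bases before its end, upstream of SPNCRNA.808: ttaatataaaaaAATAAAttttattcaacg
pho84, 16 bases before its end, upstream of nc-pho1: tcagcgataattAATAAAaattttaaaatt
smc5, 42 bases before its end, upstream of atg43: accgttagatttAATAAAttaataatatca

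Some meiotic transcripts were also higher in pfs2-F115H. In growing cells the RNA-binding protein Mmi1 marks a set of meiotic mRNAs for destruction by the nuclear exosome. Of 9 tested genes in a list of Mmi1 target mRNAs and mei2, 1 was called higher, beside 0.454% of all tested features, and 3 passed the adjusted p, all higher, beside 1.53%. The list median was 0.50. mei2, the RNA-binding protein that holds Mmi1 inactive in meiosis, was the only member with a negative log2 fold change (-0.51, limma adjusted p = 0.412) and did not pass. The medians over wild type were 0.93 in pfs2-F115H and 0.37 in yth1-R59C. crs1, a meiotic cyclin, had 13.8, 16.1 and 14.0 CPM in pfs2-F115H against 4.63, 4.75 and 5.66 CPM in yth1-R59C and 4.01, 4.73 and 4.85 CPM in wild type (log2 fold change 1.38, SE 0.35, limma adjusted p = 0.0248). The crs1 libraries were even within each strain, but the call was lost without library 1 or 2 of either mutant (limma adjusted p up to 0.11). num1, a dynein anchor at the cell cortex, averaged 39.1 ± 3.87 CPM against 19.1 ± 0.56 CPM in yth1-R59C (SD, n = 3 each) and fell just short of a call (log2 fold change 1.00, limma adjusted p = 0.00334). mcp7, a meiotic recombination protein, had a log2 fold change of 0.51 (limma adjusted p = 0.0413), with means of 122 CPM in pfs2-F115H, 85.0 CPM in yth1-R59C and 46.8 CPM in wild type.

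Other meiotic genes were called outside that list. mcp6, required for the horsetail movement of the meiotic nucleus, had 8.42, 11.3 and 8.74 CPM in pfs2-F115H against 2.06, 1.58 and 5.13 CPM in yth1-R59C (log2 fold change 1.51, SE 0.30, limma adjusted p = 0.00255). meu27, a gene named for its induction in meiosis, had 14.5, 11.3 and 12.4 CPM against 4.12, 3.70 and 3.54 CPM in yth1-R59C (log2 fold change 1.52, SE 0.37, limma adjusted p = 0.0175), and its call was lost in 5 of the 6 fits without 1 library, all but that without pfs2-F115H library 3 (limma adjusted p up to 0.09). Of 123 tested mug, meu and mde genes only meu27 was called, beside 0.454% of all tested features called higher, and the median of that list was 0.11. 2 of the 123 passed the adjusted p, both higher, beside 1.53% of all tested features. The other was meu18, below 2-fold (log2 fold change 0.62, limma adjusted p = 0.00255). mpf1, a meiotic PUF-family RNA-binding protein, had 7.66, 8.61 and 9.27 CPM against 2.57, 3.70 and 3.01 CPM in yth1-R59C (log2 fold change 1.22, limma adjusted p = 0.0485) and lost its call in all 6 such fits (limma adjusted p up to 0.188). No gene of the mating and pheromone list (19 tested) passed the adjusted p.

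Tf2-11, a copy of the Tf2 retrotransposon, had 24.5, 20.4 and 30.2 CPM in pfs2-F115H against 10.3, 8.45 and 11.1 CPM in yth1-R59C and 7.02, 5.20 and 4.31 CPM in wild type (log2 fold change 1.24, SE 0.27, limma adjusted p = 0.00556). Of 13 Tf2 copies only 3 reached the level for testing, with a list median of 0.78. Tf2-11 was the only copy called, beside 0.454% of all tested features called higher. The copies are nearly identical and only uniquely placed reads were counted. Reads that fit several copies are therefore missing, and the level of Tf2 RNA as a whole was not measured. atg43, the receptor for removal of mitochondria by autophagy, had 33.7, 29.0 and 22.5 CPM in pfs2-F115H against 12.9, 11.1 and 16.5 CPM in yth1-R59C (log2 fold change 1.02, SE 0.20, limma adjusted p = 0.00201), just past the 2-fold limit, and fell below that limit or lost the call without library 1 or 2 of either mutant (lowest log2 fold change 0.89), as also under median-of-ratios scaling, quantile normalization, edgeR and DESeq2. snR46, a small nucleolar RNA with a log2 fold change of 0.99, and jnm1, a dynactin subunit with 0.95, lay just outside it.

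The falls were fewer and many lay near chromosome ends. Of the 10 features called lower that match the annotation, 6 were among the first 50 features from a chromosome end (60%), against 4 of 27 called higher (14.8%) and 165 of 5882 tested features (2.81%). The 6 were ftm4, grt1, SPBPB2B2.05, ecl3, SPBPB10D8.02c and SPBPB10D8.03. Only SPBPB10D8.02c among them kept its call in every fit that left out 1 library, so the share near chromosome ends depends on single libraries. Families repeated near chromosome ends share sequence, and reads that fit several copies were not counted. Leaving out 1 library gave 7 to 12 features called lower.

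The largest fall at this pseudocount was that of SPBC460.05, at 9.19, 11.3 and 7.68 CPM in pfs2-F115H, against 41.7, 35.4 and 30.6 CPM in yth1-R59C and 33.9, 30.3 and 25.6 CPM in wild type (log2 fold change -1.83, SE 0.21, limma adjusted p = 9.78e-07). Other features of the SPBC460 and SPBPB10D8 identifier series were lower too. SPBPB10D8.02c, annotated as an arylsulfatase, had 11.5, 9.15 and 7.94 CPM against 28.3, 23.2 and 28.3 CPM in yth1-R59C (log2 fold change -1.40, SE 0.21, limma adjusted p = 4.89e-05). SPBPB10D8.03 had 0.766, 2.15 and 2.38 CPM against 7.20, 6.87 and 6.37 CPM (log2 fold change -1.55, SE 0.35, limma adjusted p = 0.00912), a call lost without pfs2-F115H library 1 (limma adjusted p = 0.103). SPBC460.04c had 3.06, 5.92 and 3.44 CPM against 9.26, 11.1 and 15.4 CPM (log2 fold change -1.34, SE 0.31, limma adjusted p = 0.0117) and was lost without pfs2-F115H library 1 or yth1-R59C library 3 (limma adjusted p up to 0.0853). In all 4 the pfs2-F115H libraries stood below both yth1-R59C and wild type.

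Further features of these series were looked up after those values were seen. SPBPB10D8.01, annotated as a cysteine transporter, averaged 52.2 ± 3.30 CPM in pfs2-F115H and 97.8 ± 5.27 CPM in yth1-R59C (SD, n = 3 each, log2 fold change -0.89, limma adjusted p = 5.67e-05). SPBC460.01c was lower by a log2 fold change of -0.59 (limma adjusted p = 1.54e-05), and vba2, a vacuolar transporter gene, by -0.49 (limma adjusted p = 0.00707). SPBC460.02c, between them by its identifier, had a log2 fold change of 0.02 and did not pass (limma adjusted p = 0.934).

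ftm4, a predicted membrane protein, was seen in 1 mutant only. It had 0 reads in all pfs2-F115H and all wild-type libraries, against 6, 1 and 26 reads in yth1-R59C libraries 1 to 3, or 3.09, 0.528 and 4.60 CPM. A floor of 3 reads over the pfs2-F115H group corresponds to 0.432 CPM. The reads pooled over yth1-R59C gave 3.48 CPM, 8.05-fold above that floor. This ratio holds for the pooled reads only, most of which came from library 3. It is no lower bound for each library, since yth1-R59C library 2 alone, at 0.528 CPM, lay near the floor. The call was lost without yth1-R59C library 1 (limma adjusted p = 0.06), and without its library 3, which held most of the reads, the gene no longer reached the level for testing. SPNCRNA.209 likewise stood high in yth1-R59C alone, with 1.53, 0.538 and 0.794 CPM in pfs2-F115H, 6.69, 3.70 and 2.65 CPM in yth1-R59C and 0.752, 0.473 and 0.269 CPM in wild type (log2 fold change -1.41, SE 0.39, limma adjusted p = 0.0415). That call was kept only without yth1-R59C library 3 (limma adjusted p up to 0.262 in the other fits).

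The falls of cwf20-antisense-1, grt1 and ecl3 rested on few reads. cwf20-antisense-1 had 1.53, 0.538 and 1.06 CPM in pfs2-F115H against 5.14, 6.34 and 3.01 CPM in yth1-R59C (log2 fold change -1.50, SE 0.34, limma adjusted p = 0.01). grt1, a predicted transcription factor, had 1.53, 1.08 and 0.794 CPM against 5.14, 5.28 and 3.71 CPM (log2 fold change -1.42, SE 0.38, limma adjusted p = 0.0348). ecl3, of a gene family that extends chronological lifespan, had 2.30, 3.23 and 2.38 CPM against 6.17, 10.6 and 8.14 CPM (log2 fold change -1.34, SE 0.29, limma adjusted p = 0.00618). In these the 2 mutants did not overlap. The changes stayed past 2-fold whichever library was left out (smallest log2 fold change -1.31 for cwf20-antisense-1, -1.31 for grt1 and -1.16 for ecl3), but the adjusted p did not always pass. The cwf20-antisense-1 call was lost without pfs2-F115H library 2 or yth1-R59C library 1 or 2 (limma adjusted p up to 0.0893), that of ecl3 without yth1-R59C library 2 (limma adjusted p = 0.0662), and that of grt1 in all but the fit without yth1-R59C library 3 (limma adjusted p up to 0.136). SPBPB2B2.05 had 3.83, 7.53 and 13.0 CPM against 21.1, 18.0 and 24.9 CPM in yth1-R59C (log2 fold change -1.41, SE 0.38, limma adjusted p = 0.033) and kept its call only without pfs2-F115H library 3 (limma adjusted p up to 0.286 in the other fits).

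Among the cell-surface flocculins, glycoproteins that make cells adhere, pfl8 was 1 of 8 tested members to be called lower, beside 0.202% of all tested features. It had 36.8, 32.8 and 27.0 CPM in pfs2-F115H and 61.7, 82.9 and 59.8 CPM in yth1-R59C (log2 fold change -1.05, SE 0.19, limma adjusted p = 0.000814), and wild type was above both at 149, 137 and 161 CPM. The strains did not overlap. Without pfs2-F115H library 3 or yth1-R59C library 2 the change fell below 2-fold (lowest log2 fold change -0.91). The median of the 8 flocculins was -0.43. pfl9, of the same list, was low in both mutants, at 1.53, 2.15 and 1.32 CPM in pfs2-F115H and 1.54, 3.17 and 2.48 CPM in yth1-R59C, against 33.6, 20.0 and 31.2 CPM in wild type. The mutants did not differ in pfl9 past the test (log2 fold change -0.33, limma adjusted p = 0.764).

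**Figure D5:**
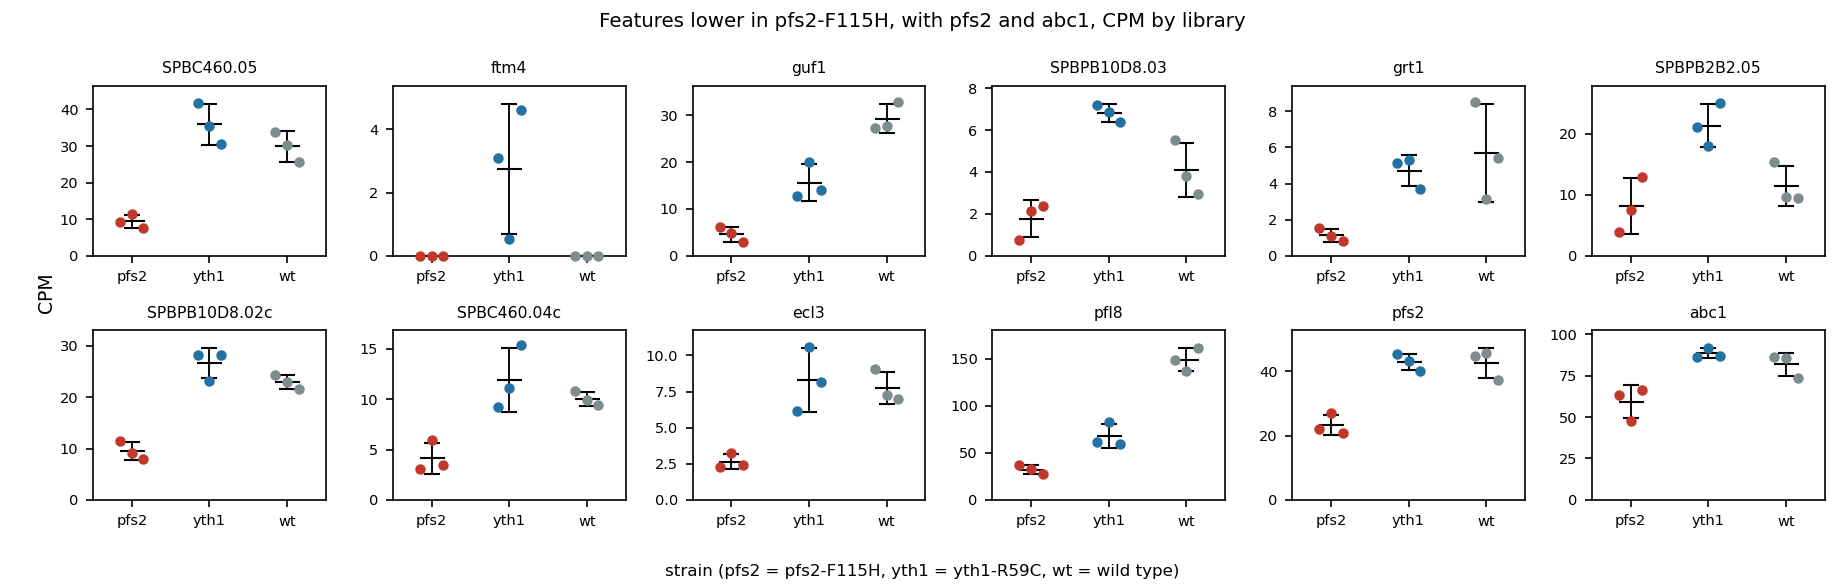
CPM (vertical axis, from 0) of the 10 called features other than noncoding RNAs that were lower in pfs2-F115H, with pfs2 and abc1, in each library of pfs2-F115H (red), yth1-R59C (blue) and wild type (grey), with the mean and SD of 3 libraries as bars. For SPBC460.05 and SPBPB10D8.02c yth1-R59C lies beside wild type, for guf1 and pfl8 between pfs2-F115H and wild type, and for ftm4 above both.

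In a smaller set wild type was nearer to pfs2-F115H. Of the 64 features that were higher in pfs2-F115H below 2-fold, 14 had wild type nearer to pfs2-F115H, and the following were chosen from these after their values were seen. mmf1, which encodes a mitochondrial matrix protein, had 433, 539 and 635 CPM in pfs2-F115H, against 319, 296 and 348 CPM in yth1-R59C and 556, 548 and 545 CPM in wild type (log2 fold change 0.72, limma adjusted p = 1.57e-06). The histidine synthesis genes his2 and his4 had means of 396 and 307 CPM in pfs2-F115H, against 275 and 213 CPM in yth1-R59C and 375 and 388 CPM in wild type (log2 fold change 0.52 for each, limma adjusted p = 1.38e-06 for his2 and 1.07e-05 for his4). In his4, hem14 and ade5 the wild-type mean lay above both mutants. hem14, an enzyme of heme synthesis, had 34.9 CPM in pfs2-F115H, 23.4 CPM in yth1-R59C and 82.7 CPM in wild type (log2 fold change 0.55, limma adjusted p = 0.0117). ade5, of purine synthesis, had 75.4 CPM, 57.9 CPM and 109 CPM in the same order of strains (log2 fold change 0.37, limma adjusted p = 0.0241).

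Other gene lists had 0 members called, and their counts past the adjusted p are read beside the 2.58% of all tested features that passed it. Of 145 cytosolic ribosomal protein genes 3 passed, all lower (rpl1603, rpl102 and rpl2401), with a median of -0.13. No gene passed it among the nuclear genes of the respiratory chain (58 tested), glycolysis and fermentation (18), core environmental stress (17), cell wall glucan synthesis (20), MBF-controlled genes of DNA replication (10), lysine synthesis (7), the mitochondrial genome (36) or the spliceosomal snRNAs (5). In the hexose transporter and glucose-repressed list 2 of 16 passed, both lower (ght2 and mae2), and among nitrogen-responsive transporters 2 of 14, both lower (mae1 and amt1). Among 16 heat shock chaperones mcp60 passed as higher and ssc1 as lower. Of 11 histone genes hta1 passed and of 10 purine synthesis genes ade5, both higher. Of 8 tested phosphate and thiamine genes thi9 passed, lower. A p that misses the threshold does not show equal levels.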

How the data were processed

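Total RNA was sequenced by the authors with a stranded kit in single-end reads of 50 nucleotides, aligned with STAR (version 2.7.3a) to ASM294v2 and counted per gene with featureCounts on the transcribed strand, using uniquely placed reads on 1 feature only. The authors deposited CPM values, from which 100% of whole reads were recovered (tolerance 0.05), and 125 to 924 reads per library lie outside the listed features. Groups follow the sample labels. A linear model of log2(CPM + 1) was fitted in limma 3.58.1 under R 4.3.3, over all 30 libraries of 10 strains, 1 mean per strain, with a mean-variance trend, 20 residual degrees of freedom and Benjamini-Hochberg adjustment over the 5941 features tested. Tests were two-sided. Fold changes on this scale understate those of low features. The smallest p of an exact permutation test between groups of 3 is 0.1. Positions came from RefSeq annotation of ASM294v3, matched by identifier for 6850 of 6996 features. Named features are the 12 largest rises and falls, pfs2, yth1, ade6, act1 and their neighbours, and called members of gene lists; any other feature was chosen after its values were seen. Members and lists were chosen with earlier results of these data known. The script was tested on simulated data. Under a mean of 10 CPM it called 25% of 20 true 2.5-fold changes and 66.7% of 21 4-fold ones. At 10 CPM or more it called 95% of 80 and 100% of 79. Of 180 calls in this simulation 6 were false. That share depends on the number of changes planted and is not a rate for the calls in the real data. Alternatives were other pseudocounts, filters, scalings, variance models and thresholds, a replicate block, thinning, each library left out, and edgeR (version 4.0.16) and DESeq2 (version 1.42.0) on the recovered reads. Small RNA samples were not analysed here.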

Additional observations from a re-analysis of the deposited data

How the results depend on the processing

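All 39 calls kept their direction under the 24 alternatives wherever they were tested. The main count of 39 (27 higher, 12 lower) became 23 with a pseudocount of 4 (19 higher, 4 lower), 20 with a minimum mean of 10 CPM (15 and 5), 23 at an adjusted p under 0.01 (16 and 7), 153 without a minimum change (91 and 62) and 22 with libraries thinned to 1031839 reads (16 and 6). The filter tests fewer features, and the thinning leaves fewer reads; for the pseudocount the cause was not tested. The share of higher calls was 82.6% with a pseudocount of 4, against 69.2%. A pseudocount of 0.1 gave 26 calls (18 and 8), edgeR 48 (34 and 14) and DESeq2 36. Leaving out 1 library gave 24 to 42 calls, 17 to 30 higher and 7 to 12 lower, of which 22 to 32 were among the 39. The count was 24 without pfs2-F115H library 1, 26 without library 2, 24 without yth1-R59C library 1 and 25 without library 2. 14 features were called under all 22 alternatives with the same thresholds and 18 in all 6 fits without 1 library. Leaving out the mitochondrial genome, an alternative chosen after seeing the data, gave 41 calls (30 and 11). Median-of-ratios scaling moved the median of all features to 5.5e-05 and gave 35 calls.

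The main fit did not pair libraries by replicate number. Deviations of same-numbered libraries from their strain means correlated at 0.06, 0.01 and 0.21, the last for library 3. Whether same-numbered libraries share a batch was not tested. With a replicate block 36 features were called over 30 libraries (25 higher, 11 lower), beside 39 without it. Over the 6 libraries of the mutants 54 were called with the block (40 and 14) and 44 without it (34 and 10).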

Other observations

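Each mutant is 1 strain with 3 libraries, and the pfs2-F115H allele is marked with kanMX while yth1-R59C is not, so allele, marker and strain background cannot be told apart. Libraries 1 and 2 of each mutant are shallow beside its library 3, and pfs2-F115H library 1 is the shallowest (1305730 reads). Features under 10 CPM rest on few reads. Counts per feature hold neither transcript ends nor reads shared by neighbouring features of the same strand. Positions follow ASM294v3, whereas the reads were aligned to ASM294v2.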
